A study of Homo sapiens with 4 samples.

Results

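Expression of 10 genes of the activin, TGF-beta and GDF15 branch of the TGF-beta superfamily was examined in LN229, a human glioblastoma cell line, with the *SOX2* gene knocked down or after mock knockdown. The members were chosen by gene symbol, with earlier results of these data known, and are *INHBE*, *INHBA*, *INHBB*, *FST*, *TGFB1*, *TGFB2*, *TGFBR1*, *TGFBR2*, *SMAD7* and *GDF15*, out of 20481 gene symbols on the arrays. Each member was read by 1 probe. *SOX2*, a transcription factor of stem cells, was lowered by transient transfection of siRNA, a short duplex through which the cell degrades transcripts of matching sequence, and the mock cells received a siRNA with no target. Each group holds 2 arrays, described in the study's methods as biological replicates with their own transfections. All cells were grown in DMEM, which per those methods contained fetal bovine serum. Which of the siRNAs against *SOX2* was used for the arrays, and the passage of the cells, are not given in the sources used here. The differences between the groups were in view when the members were chosen, so their values are given as a description and without a p-value.

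Activins and TGF-betas are secreted dimers of the same superfamily. They bind pairs of receptor kinases on the cell surface, which phosphorylate SMAD proteins that enter the nucleus and regulate transcription. Follistatin binds activin outside the cell, and SMAD7 is an inhibitory SMAD that is itself induced by the pathway. GDF15 is a distant member of the superfamily that signals through GFRAL, a receptor known from the hindbrain, and is released by stressed cells. TGF-beta is known in glioblastoma for its effects on invasion and immune suppression.

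Signals are given as scaled signal, the linear signal of a probe divided by the 75th percentile of the probes on its array, so that a value of 1 is the signal at that percentile. Signal-to-noise (S/N) is the scanner software's score of a signal against its error on that array, deposited beside the signal, and a probe was kept if its S/N exceeded 3 on the 2 arrays of either group. Signals of different probes are not compared, since they depend on the probe. Of the gene probes, between 63.8% and 69.4% had S/N over 3 on an array, and replicate arrays correlated at r = 0.986 (mock) and r = 0.991 (*SOX2* knockdown) across the log2 signals of the 21256 probes kept. The *SOX2* probe itself read 0.467 and 0.701 in mock cells and 0.209 and 0.149 after knockdown, a ratio of 0.307 (limma adjusted p = 0.117). Its S/N was 5.17 and 13.56 in mock cells and 3.17 and 3.06 after knockdown, the latter just over the cutoff of 3. One label names SW620, a colon line, where all others name LN229. Of 11 genes listed as glioblastoma line markers 10 had S/N over 3 on all 4 arrays, against 2 of 11 colon epithelium genes (*TFF3* and 1 of the *VIL1* probes). A gene with several probes was counted by its best probe. The colon genes *CDH1*, *KRT20* and *CDH17* reached it on no array, and the other colon genes listed on 1 or 2 arrays. Of the immune genes listed *CD14* had S/N over 3 on all 4 arrays, and neither of 2 endothelial genes did. Changes in the number of cells of a kind and in RNA per cell cannot be told apart in such bulk samples.

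Of the 10 members, 8 had a kept probe and 6 had S/N over 3 on all 4 arrays. *INHBE* was the 1 member more than 2-fold higher after *SOX2* knockdown, and 0 members were more than 2-fold lower. Over all 21256 kept probes 1.57% were more than 2-fold higher and 1.04% more than 2-fold lower. The 2 knockdown arrays were above the 2 mock arrays for 2 members (*INHBE* and *TGFB2*) and below them for 3 (*INHBA*, *FST* and *TGFB1*), and the groups overlapped for the other 3 kept members. Over all kept probes 21.2% lay wholly above and 25.8% wholly below. The median log2 change of the 8 kept members was 0.04, beside -0.0012 over all kept probes. The members were chosen with this contrast in view, so nothing is read from these counts.

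**Figure D1:**
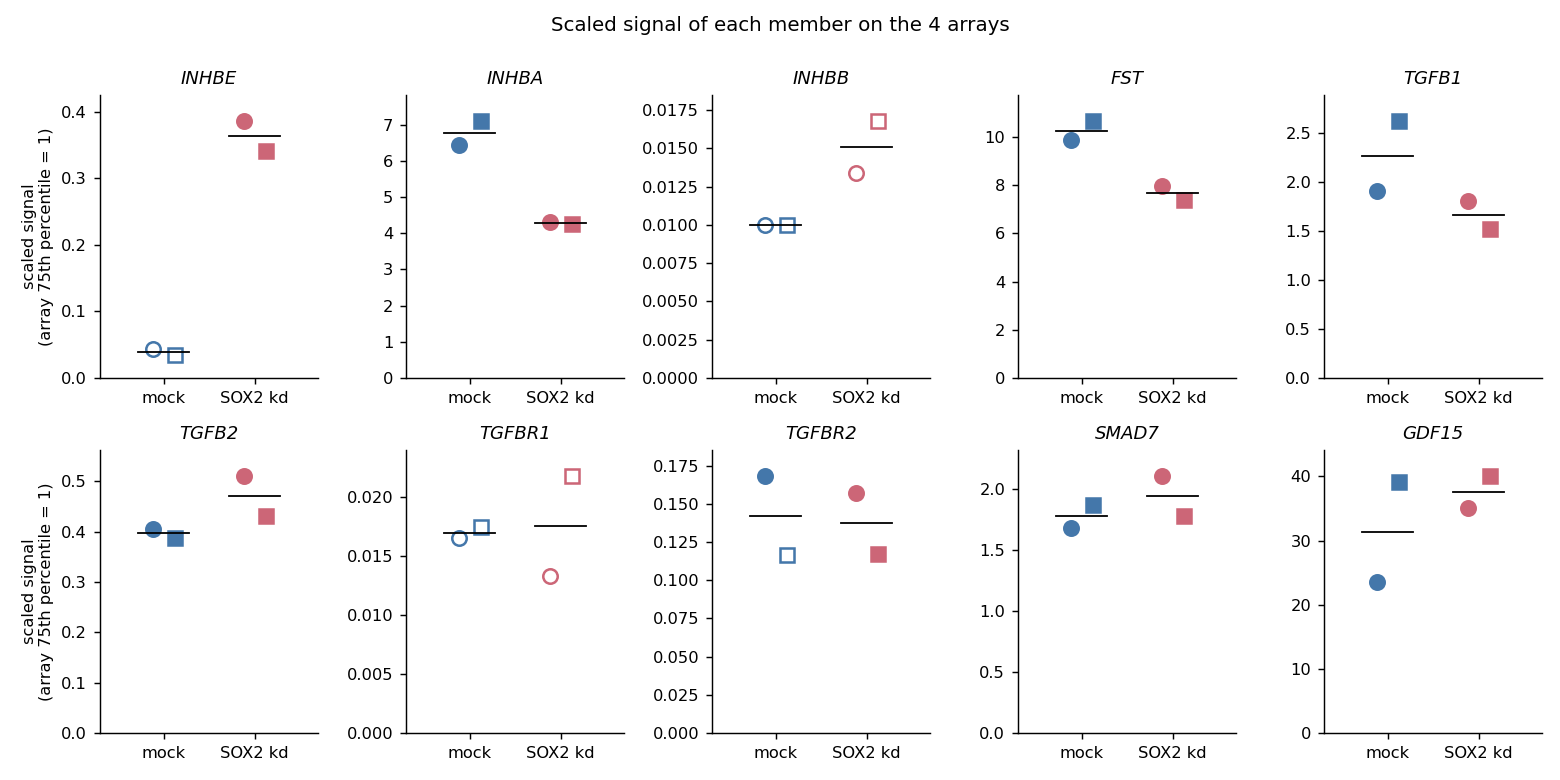
Scaled signal of the 10 members on the 4 arrays (vertical axes linear from 0, each with its own range). Circles are replicate 1 and squares replicate 2, blue for mock and red for SOX2 knockdown (SOX2 kd); filled symbols have S/N over 3, open symbols do not, and the black line is the mean of the 2 arrays. INHBE goes from open symbols at 0.0429 and 0.0349 to filled ones at 0.386 and 0.341, INHBA drops to 4.31 and 4.25, and INHBB and TGFBR1 are open throughout.

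Among the activin subunits, *INHBE* was near background in mock cells and measurable after *SOX2* knockdown. *INHBE* encodes the beta E subunit of activin E, known chiefly from liver, and its transcript is known to be induced under endoplasmic reticulum and amino acid stress. Its scaled signal in mock cells was 0.0429 and 0.0349, and after knockdown it was 0.386 and 0.341. S/N was 0.86 and 0.90 in mock cells and 12.73 and 13.07 after knockdown, so both knockdown arrays lay far above both mock arrays. The means were 0.0389 ± 0.00567 (SD, n = 2) and 0.363 ± 0.0320 (SD, n = 2), a ratio of 9.34 and a log2 change of 3.23 (SE 0.17). The mock signals were not well above background, and on both arrays the deposited value was the error of the signal itself, which the scanner files mark with a flag. On the scaled signal the fold is therefore a bound, at least 3.16-fold higher after knockdown when each mock signal was raised to 3 times its own error. The SE takes the mock values as measured and does not cover this uncertainty. Background correction of the raw reading by normexp, run with an offset of 50, brought the ratio to 2.19. The bound thus does not hold for that setting. *INHBE* stayed higher after knockdown under all 11 alternatives run.

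*INHBA*, which encodes the beta A subunit of activin A, differed in the other direction. Its scaled signal was 6.45 and 7.10 on the mock arrays, against 4.31 and 4.25 on the knockdown arrays, with S/N between 74.23 and 131.64. The means were 6.77 ± 0.463 (SD, n = 2) and 4.28 ± 0.0427 (SD, n = 2), a ratio of 0.632. The groups were well apart, and the log2 change of -0.66 (SE 0.13) moved between -0.73 and -0.59 under the alternatives. The subunit *INHBB* was not well above background on any array, with S/N from -1.05 to 0.30, so no level and no fold is given for it.

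*FST*, which encodes the activin antagonist follistatin, also read lower after knockdown. Its scaled signal was 9.86 and 10.7 in mock cells and 7.96 and 7.37 after knockdown. The ratio of the means was 0.747 (10.3 ± 0.564 against 7.67 ± 0.421, SD, n = 2 each), with a log2 change of -0.42 (SE 0.13). The groups did not overlap, and the gap between the lower mock array and the higher knockdown array was wider than the difference within either group.

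Of the TGF-beta ligands, *TGFB1* read lower and *TGFB2* slightly higher after *SOX2* knockdown. *TGFB1* had a scaled signal of 1.90 and 2.62 on the mock arrays, against 1.81 and 1.52 on the knockdown arrays. The first mock array and the first knockdown array were close together, and the mock arrays differed by 1.38-fold between themselves. The ratio of the means was 0.735 (2.26 ± 0.506 against 1.66 ± 0.206, SD, n = 2 each) and the log2 change -0.43 (SE 0.21), which ran from -0.66 to -0.20 when single arrays were left out.

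*TGFB2*, the isoform first isolated from glioblastoma cells as a T-cell suppressor, read 0.406 and 0.388 in mock cells and 0.511 and 0.431 after knockdown. The groups did not overlap, but the gap between them was narrower than the difference between the knockdown arrays. The ratio of the means was 1.19 and the log2 change 0.24 (SE 0.15). The probe of *TGFB3*, the remaining isoform, carries the same Celera gene ID as that of *TGFB2* on this array, so averaging by that ID would mix the isoforms. It read 0.0974 and 0.0640 on the mock arrays, against 0.0846 and 0.0906 on the knockdown arrays, and its groups overlapped.

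The stretch before the transcription start is shown for *INHBA*, *FST* and *TGFB1*, the 3 members whose knockdown arrays both lay lower. The sequences are 250 bases each, read from RefSeq promoter windows on GRCh38.p14, 5′ to 3′ on the strand of the gene: chr7:41703091-41703340 on the minus strand of chromosome 7 for *INHBA*, chr5:53480379-53480628 on the plus strand of chromosome 5 for *FST* and chr19:41353923-41354172 on the minus strand of chromosome 19 for *TGFB1*. Capitals mark matches, on either strand, to the TATA box (letters TATAAA), the SMAD half-site (letters CAGAC), the SOX core (letters ATTGTT) and the cAMP response element (letters TGACGTCA), none of which contains another.
INHBA: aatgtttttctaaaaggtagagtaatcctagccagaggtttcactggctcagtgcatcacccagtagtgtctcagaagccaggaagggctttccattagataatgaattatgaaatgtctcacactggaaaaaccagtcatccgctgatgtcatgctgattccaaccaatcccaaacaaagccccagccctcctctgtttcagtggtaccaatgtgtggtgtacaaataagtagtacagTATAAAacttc
FST: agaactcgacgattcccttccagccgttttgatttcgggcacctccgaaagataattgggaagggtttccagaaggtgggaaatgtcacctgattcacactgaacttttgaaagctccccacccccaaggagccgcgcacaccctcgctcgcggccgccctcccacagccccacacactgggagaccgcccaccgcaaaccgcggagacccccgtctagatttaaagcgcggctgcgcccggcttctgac
TGFB1: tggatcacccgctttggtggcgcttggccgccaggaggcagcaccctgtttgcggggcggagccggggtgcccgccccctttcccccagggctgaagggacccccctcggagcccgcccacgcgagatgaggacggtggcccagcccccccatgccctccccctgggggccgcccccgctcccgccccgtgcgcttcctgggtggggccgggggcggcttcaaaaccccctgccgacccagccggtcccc
The *INHBA* window held 1 TATA box match, which 10.7% of all 35116 windows of this length hold. The *FST* and *TGFB1* windows held none of the 4 motifs. None of the 3 windows held the SMAD half-site, the SOX core or the cAMP response element, whose letters are found in 38.0%, 8.98% and 1.65% of windows respectively. This says only that these letters are not in these bases. The study reports a different and looser consensus for *SOX2* binding, wwTGnwTw (w is A or T, n any base), which was not searched for here. Of the 10 members 9 have a window in the table; *INHBE* does not.

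The receptors among the members, *TGFBR1* and *TGFBR2*, gave little measurable signal. *TGFBR1*, the type I receptor kinase, was not well above background on any array, with S/N from 0.13 to 2.78, so no fold is given. *TGFBR2*, the type II receptor that binds the ligand, read 0.168 and 0.116 in mock cells and 0.157 and 0.117 after knockdown. S/N of *TGFBR2* was 5.4 and 1.41 in mock cells and 4.62 and 3.63 after knockdown. The groups overlapped, the ratio was 0.966, and the sign of the log2 change of -0.04 (SE 0.26) turned in 2 of the 11 alternatives.

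*SMAD7*, the feedback inhibitor of the receptors, read 1.68 and 1.87 on the mock arrays, against 2.11 and 1.78 on the knockdown arrays. The groups overlapped, with a ratio of 1.09 and a log2 change of 0.13 (SE 0.16). S/N was 55.91 or more on all 4 arrays.

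*GDF15* was bright on all 4 arrays, with S/N of 37.76 or more. Its scaled signal was 23.6 and 39.1 in mock cells and 35.1 and 40.1 after knockdown. The first mock array stood apart from the other 3, and the mock arrays differed by 1.66-fold. The means were 31.3 ± 11 (SD, n = 2) and 37.6 ± 3.51 (SD, n = 2), a ratio of 1.20 that is smaller than the difference between the mock arrays. The log2 change of 0.31 (SE 0.28) rested on that array: without it the ratio was 0.963, and without the second mock array it was 1.6.

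**Figure D2:**
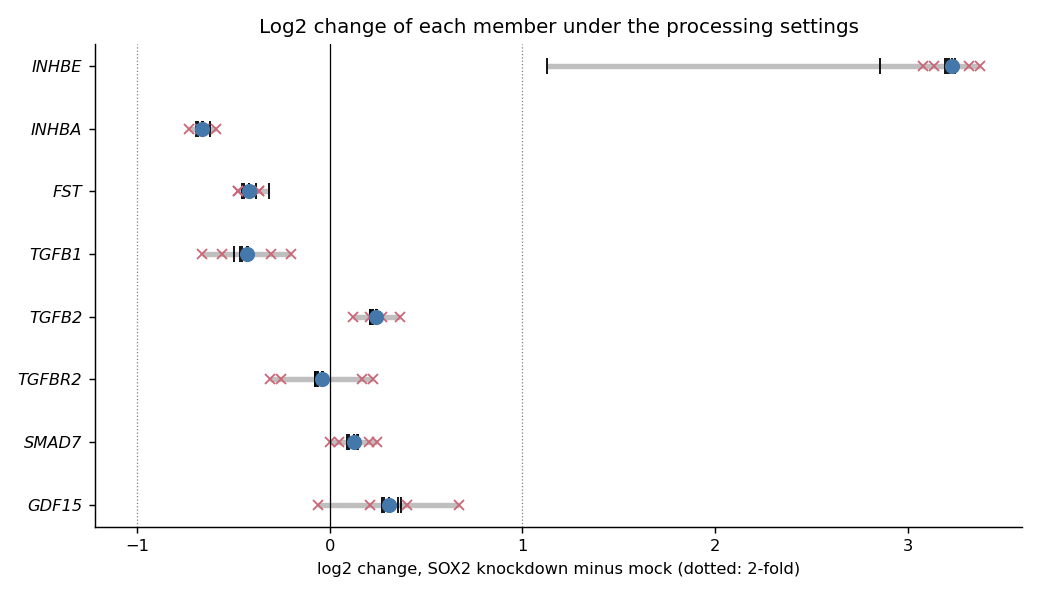
Log2 change of the 8 kept members, SOX2 knockdown minus mock (horizontal axis; dotted lines mark 2-fold). Blue circles are the values as reported, black ticks other processing settings, red crosses the fits without 1 array, and the grey bar spans them: INHBE stays right of the upper dotted line from 1.13 to 3.38, INHBA, FST and TGFB1 stay left of 0, TGFB2 stays right of 0, and the bars of TGFBR2 and GDF15 cross it.

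Likeness to *INHBE* and to *GDF15* was measured over the 4 arrays by the root mean square difference of the log2 scaled signals, each centred on its own mean. The 5 genes nearest to *INHBE* were *TSLP*, *PTX3*, *KRT86*, *CXCL3* and *CYP4F3*, at 0.116 to 0.224. They include a cytokine (*TSLP*), a pentraxin (*PTX3*), a chemokine (*CXCL3*), a hair keratin (*KRT86*) and a leukotriene-metabolising enzyme (*CYP4F3*). *TSLP*, *PTX3* and *CXCL3*, with S/N over 3 on all 4 arrays, had ratios from 7.17 to 8.0. *KRT86* and *CYP4F3*, like *INHBE*, had S/N over 3 on the 2 knockdown arrays alone, so no ratio is given for them and the distances to *INHBE* rest on mock signals not well above background. The 5 nearest to *GDF15* were *PMF1*, *ITGAM*, *AURKB*, *CHERP* and *TRIM23*, at 0.0311 to 0.0501. All 5 shared the low first mock array of *GDF15*. This, like the high ratios of the genes nearest to *INHBE*, follows from choosing genes by likeness over the same arrays. With 4 arrays many genes can share a shape, and nothing is said of shared control.

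**Figure D3:**
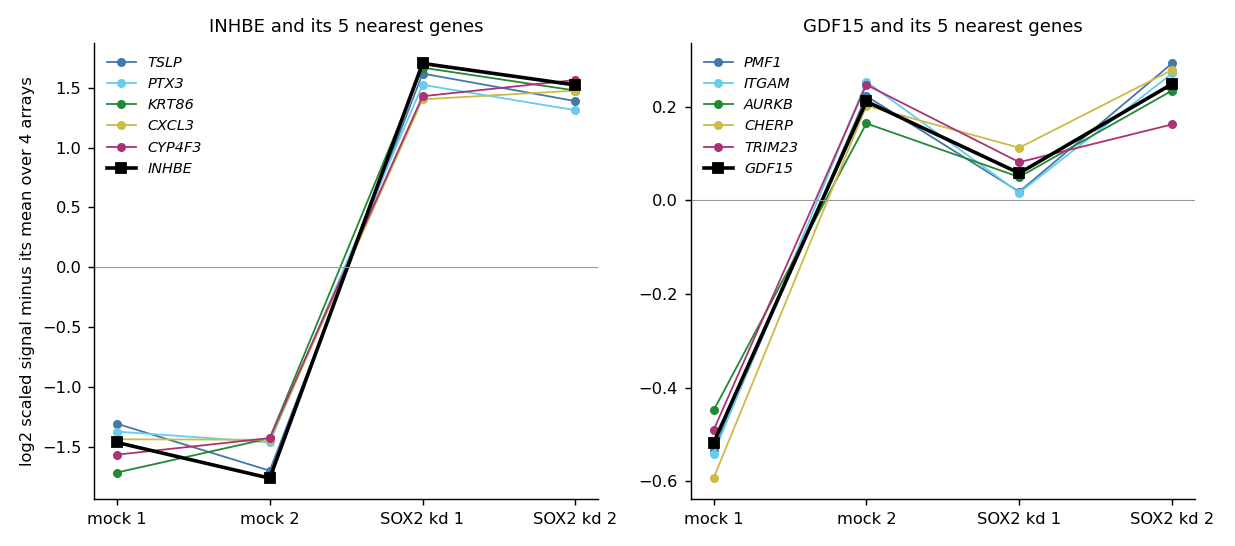
Log2 scaled signal on each array, minus its mean over the 4 arrays (vertical axes), for INHBE (left, black) and GDF15 (right, black) with their 5 nearest genes in colour; lines join the arrays for reading only. On the left all 6 genes are low on both mock arrays and high on both knockdown arrays, and on the right all 6 are lowest on mock 1.

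The other genes of the pathway were taken from a list of 75 genes in 5 groups by role. Of these 71 were on the arrays, with 85 probes, of which 66 (56 genes) were kept. No kept probe of the list passed an adjusted p of 0.05 in limma (0 of 66, smallest adjusted p 0.0675), and 0.0% of all kept probes did (smallest adjusted p 0.0582). At an unadjusted limma p under 0.05 there were 19 of the 66 probes of the list, 9 higher and 10 lower, beside 3626 of all 21256 kept probes. With a variance trend in the same fit limma called 5 of the 66 probes of the list and 287 of all 21256 kept probes. Knockdown arrays lay wholly above mock arrays for 17 probes of the list (25.8%) and wholly below for 18 (27.3%). Over all kept probes these shares were 21.2% and 25.8%. The median log2 change of the list was 0.10.

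Among the transcriptional targets, *KLF10* stood more than 2-fold higher after knockdown on both of its probes, and 0 probes of the list were more than 2-fold lower. An older name of this zinc-finger factor refers to its early induction by TGF-beta. Its first probe read 2.39 and 1.93 in mock cells and 6.46 and 6.26 after knockdown, and its other probe 1.41 and 1.36 in mock cells and 3.76 and 3.79 after knockdown. The ratios were 2.95 and 2.73 (limma adjusted p = 0.0833 and 0.0675). These probes did not overlap between groups, and passed 0.05 under a variance trend and under median scaling. They did not pass it under quantile normalization, normexp, no S/N filter or S/N over 3 on all 4 arrays. Nor did they pass it with a floor of 0.05 or a replicate block. *CCN2* (connective tissue growth factor), a classical TGF-beta target, differed the other way, from 6.23 and 5.0 on the mock arrays to 3.39 and 2.91 on the knockdown arrays (log2 change -0.83, SE 0.18, limma adjusted p = 0.150). In all, 7 of the 18 kept target probes lay wholly above and 3 wholly below, with a median log2 change of 0.21, where 21.2% of all kept probes lay above and 25.8% below.

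Of the 13 kept probes for extracellular binding, latency and activation, 7 lay wholly below and 2 wholly above, with a median log2 change of -0.35, where 25.8% of all kept probes lay below and 21.2% above. These genes were singled out after their values were seen. The 7 were those of *FSTL1*, *LTBP1*, *LTBP3*, *LTBP4*, *BGN*, *ITGAV* and *FURIN*, which include 3 latent TGF-beta binding proteins and the protease that cleaves the TGF-beta precursor. Both kept probes of *LTBP2*, another latent TGF-beta binding protein, overlapped between the groups, with ratios of 1.12 and 1.07. The 2 were *ITGB8*, the integrin subunit that pairs with *ITGAV* to release latent TGF-beta, and *THBS1*, thrombospondin 1. *ITGB8* read 0.0974 and 0.108 in mock cells and 0.194 and 0.215 after knockdown (log2 change 1.0, SE 0.14, limma adjusted p = 0.102). *THBS1* had a ratio of 1.86 (limma adjusted p = 0.140).

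Among the SMADs and their regulators 5 of 21 kept probes lay wholly above and 5 wholly below, with a median log2 change of 0.08. Over all kept probes 21.2% lay above and 25.8% below, so these counts were near the shares of all probes. *SKIL*, the SMAD co-repressor SnoN, had a ratio of 1.89 (log2 change 0.92, SE 0.13, limma adjusted p = 0.102). *PMEPA1*, a TGF-beta induced antagonist of SMAD signalling, had ratios of 0.580 and 0.589 on its probes (limma adjusted p = 0.156 and 0.117).

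Of the 8 kept ligand probes 1 lay wholly above and 3 wholly below, where 21.2% of all kept probes lay above and 25.8% below. *GDF11*, a close relative of myostatin, read 1.52 and 1.67 on the mock arrays, against 0.862 and 0.867 on the knockdown arrays (log2 change -0.88, SE 0.13, limma adjusted p = 0.105). *INHBC*, the activin gene next to *INHBE* in the gene order of RefSeq, was not kept, and its S/N was 0.90 and 0.87 in mock cells and 3.38 and 2.07 after knockdown. Of the 6 kept receptor and co-receptor probes 2 lay wholly above and 0 below, beside the same shares of 21.2% and 25.8% over all kept probes. With so few probes nothing is read from these counts. *GFRAL*, the receptor of GDF15, was not kept.

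**Figure D4:**
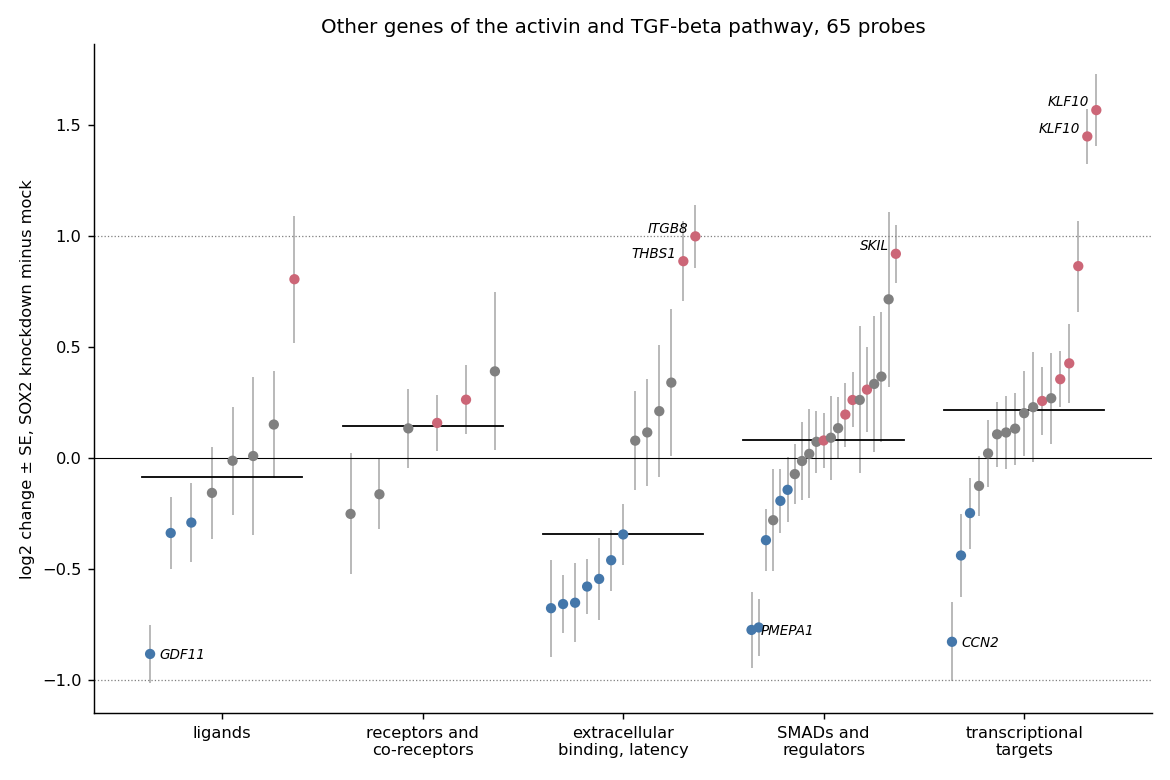
Log2 change with its SE (limma), SOX2 knockdown minus mock, of 65 of the 66 kept probes of the pathway list by role, in order of size within a role. Red points have both knockdown arrays above both mock arrays, blue points below, grey points overlap, black lines are the medians of the groups and dotted lines mark 2-fold; both KLF10 probes lie above the upper line, and the extracellular group has 7 blue points and a median of -0.35.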

How the data were processed

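Total RNA of LN229 cells was labelled with biotin and hybridised to 4 one-colour Applied Biosystems arrays read by chemiluminescence, 2 per group, grouped by the labels. The deposited scanner files give the signal as an intensity, normalized within the array by the scanner software, and per the file headers S/N is a separate score. The authors also deposited a table of a linear ratio per probe and array, normalized per chip and per gene in GeneSpring, which was used as an alternative; its scale was checked against the scanner signal. The software's version and genome build are not given in the sources used here, and the reading of the flags rests on the values.

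Control features and 210 probes with a flag of 5000 or more were left out, which left 32886. Signals were divided by the 75th percentile of the array, floored at 0.01, and log2 was taken. Of these, 21256 probes with S/N over 3 on both arrays of a group were kept, so a probe high in 1 group alone could pass. Probes were not averaged by gene ID, unlike in the study's methods. Fold changes past 2-fold are ratios of linear replicate means; tests and SEs are limma 3.58.1 in R 4.3.3 (lmFit and eBayes; two-sided p-values, adjusted by Benjamini-Hochberg across the kept probes). The number of arrays limits the precision. The fit was tested on simulated data. Scaling, background correction, filter, floor, replicate block, variance trend and each array left out were varied.

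The members and lists were chosen with earlier results of these data known. Named beside the members are *SOX2*, pathway genes past 2-fold with groups apart, in each direction the 3 probes that differed most on the log2 scale and whose S/N exceeded 3 on every array, and the 5 genes nearest to *INHBE* and to *GDF15*; *TGFB3*, *INHBC*, *GFRAL* and the genes of the extracellular group were singled out after their values were seen. Older array symbols (*TMEPAI*, *CTGF*, *KRTHB6*) were updated through RefSeq's gene table. A gene of the pathway list and a marker, counted in the totals, are not reported here.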

Additional observations from a re-analysis of the deposited data

How the results depend on the processing

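The count of probes past 2-fold was 554, and became 220 with normexp, 1373 with no S/N filter, 302 where every array had to exceed an S/N of 3, 363 after flooring at 0.05, and 782 to 1192 without single arrays (1192 without the first mock array, 1135 without the first knockdown array, 868 without the second mock array). For the pathway list the 3 probes became 5 with no S/N filter and 5 to 6 without single arrays. Probes at an adjusted p of 0.05 numbered 0, against 826 with median scaling, 758 with the authors' table, 5 with S/N over 3 on all 4 arrays and 287 with a variance trend; for the pathway list 0 became 5 with median scaling, 5 with the authors' table and 5 with a variance trend. These alternatives change the values, the variances, or the probes or arrays entering the fit, and the cause was not tested.

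With the replicate number as a block, 655 probes and 3 pathway probes were past 2-fold and 0 at the adjusted p; the labels give no more than a shared number, and the replicate differences of the groups correlated at -0.484 across probes. Crossed pairing, chosen after seeing the data like the unrounded signal (553 probes past 2-fold) and the bound at 3 times the error for *INHBE*, gave 623 and 4 past 2-fold and 0 at the adjusted p.

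Of the 8 kept members, *INHBE*, *INHBA*, *FST*, *TGFB1*, *TGFB2* and *SMAD7* kept their direction under the 11 alternatives run for single members. For *SMAD7* this was so in name only, since its log2 change was 0.0027 without the first knockdown array. *TGFBR2* changed sign in 2 and *GDF15* in 1 (without the first mock array). With 2 arrays per group, the differences of *TGFB1*, *TGFBR2*, *SMAD7* and *GDF15* were smaller than the difference between the replicate arrays of a group. That of *TGFB2* was about equal to the difference between its knockdown arrays.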
